A study of Homo sapiens with 12 samples.

Results

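The 6 genes CEBPA, CEBPB, CEBPD, CEBPE, CEBPG and CEBPZ were taken by name from the 19974 protein-coding genes annotated on chromosomes 1 to 22 and X, and every ATAC-seq peak on the gene or within 60 kb of either end was kept. ATAC-seq reads open chromatin: the Tn5 transposase inserts sequencing adapters where DNA is accessible, and a peak is a stretch with more insertions than its surroundings. In hg38, CEBPA lies at chr19:33299934-33302534 (minus strand) with CEBPG next to it at chr19:33373709-33382686 (plus), so that their windows overlap. CEBPB lies at chr20:50190583-50192690 (plus), CEBPD at chr8:47736913-47738164 (minus), CEBPE at chr14:23117306-23119255 (minus) and CEBPZ at chr2:37201612-37231596 (minus). The windows held 770 of the 1199477 peaks used, and merging the peaks of all libraries where they overlapped gave 149 regions in the windows out of 334907 in the genome. The cells were 3 human acute myeloid leukemia (AML) lines: MOLM13, which carries the MLL-AF9 fusion; MV4-11, which carries MLL-AF4; and OCI-AML3, which carries mutant NPM1. Each line was exposed to 500 nM VTP50469, a menin inhibitor that blocks the binding of menin to MLL1, for 16 h, or was a library labelled control, for which no vehicle is named, and 2 libraries were made in each of the 6 groups. All cells were cryopreserved before nuclei were isolated. MV4-11 was grown in another medium (IMDM) than MOLM13 and OCI-AML3 (RPMI), each with 20% FBS, so line and medium cannot be told apart for MV4-11. The sources used here do not say whether the 2 libraries of a group came from separate cultures, and p-values therefore measure only the spread between these libraries. Each line is a single model of its genotype.

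The CCAAT/enhancer-binding proteins (C/EBPs) are transcription factors with a basic leucine zipper, which bind DNA as dimers. In blood formation CEBPA commits progenitors to the granulocyte and monocyte path and restrains their division, and it is a recurrent target of mutation in AML. CEBPB takes over when granulocytes are needed in an emergency, CEBPD answers inflammatory signals, and CEBPE drives the last steps of granulocyte maturation. CEBPG lacks an activation domain and acts as a dimer partner of the others. CEBPZ shares the name through its binding to CCAAT elements but is not a leucine zipper protein, and it takes part in making ribosomes. A myeloid enhancer about 42 kb downstream of the CEBPA start site is known to drive CEBPA in blood progenitors, and it lay within the window taken here.

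The number of called peaks per library ran between 68670 and 145364, highest in the 4 MV4-11 libraries (115689 to 145364), and the sequencing depth of the libraries is unknown. Read counts at each summit could be recovered from the deposited fold and p-value, and the median called peak had between 9 and 13 reads at its summit, the fewest in any called peak being between 3 and 5. A library without a peak at a region may thus still have held a few reads there. Of the myeloid markers, SPI1, FLT3 and CD68 had a peak within 1 kb of the start site in all 12 libraries and MPO in the 8 MOLM13 and MV4-11 libraries, whereas CSF1R had one in 2 MV4-11 libraries and CD33 in 1. The erythroid markers GATA1 and KLF1, the B cell marker MS4A1 and the T cell marker CD3E had a peak in 0 libraries. The exceptions were CD8A, with a peak in 12 libraries, PAX5 in 8, CD79A in 7, CD2 in 3, and CD3D and HBB in 1 each.

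The promoters of the family differed in sequence and in openness. Sequences from 250 bases before to 50 bases after the start site were taken from RefSeq (GRCh38.p14), and 5 of the 6 members were matched there; the promoter sequence of CEBPD was not analysed here. CEBPA, CEBPZ and CEBPE are printed because they span the range of CpG density in the family, and the capitals mark CpG dinucleotides. They lie at chr19:33302485-33302784, chr2:37231547-37231846 and chr14:23119206-23119505, all on the minus strand, and are given 5′ to 3′ on that strand.
CEBPA: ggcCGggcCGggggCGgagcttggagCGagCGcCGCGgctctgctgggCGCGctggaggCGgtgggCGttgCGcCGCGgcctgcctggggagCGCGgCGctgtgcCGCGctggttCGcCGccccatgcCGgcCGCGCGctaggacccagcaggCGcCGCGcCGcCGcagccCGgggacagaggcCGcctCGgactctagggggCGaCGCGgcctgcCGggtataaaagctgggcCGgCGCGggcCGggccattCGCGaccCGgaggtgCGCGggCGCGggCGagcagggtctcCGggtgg
CEBPZ: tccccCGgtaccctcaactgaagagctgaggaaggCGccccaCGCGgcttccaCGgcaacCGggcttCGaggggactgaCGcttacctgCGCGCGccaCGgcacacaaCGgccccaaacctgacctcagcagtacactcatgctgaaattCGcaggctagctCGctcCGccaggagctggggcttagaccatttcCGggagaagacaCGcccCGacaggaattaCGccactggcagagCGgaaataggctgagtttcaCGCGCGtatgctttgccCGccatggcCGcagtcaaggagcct
CEBPE: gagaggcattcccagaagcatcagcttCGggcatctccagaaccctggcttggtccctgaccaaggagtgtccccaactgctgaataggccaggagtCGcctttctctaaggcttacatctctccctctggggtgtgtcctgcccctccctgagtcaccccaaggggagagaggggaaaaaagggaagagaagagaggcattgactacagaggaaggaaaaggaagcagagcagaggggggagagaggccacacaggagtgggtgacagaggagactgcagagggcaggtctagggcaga
The CEBPA promoter held 50 CpGs, at percentile 98.4 of 22132 annotated promoters, and CEBPZ held 26, at percentile 61.0. CEBPB held 31 and 43 at its pair of annotated starts and CEBPG 43 and 45. CEBPE held 2, at percentile 6.03. A peak lay on the printed window in all 12 libraries at CEBPA and CEBPZ and at both CEBPG starts, and in 11 and 10 libraries at the CEBPB starts. On the CEBPE window a peak was called in 2 libraries, MV4-11 VTP50469 replicate 1 (fold 4.32 over the local background, 16 reads at the summit) and MV4-11 control replicate 1 (fold 3.54, 12 reads). Over all promoters, 3.36% of the 4727 with 0 to 5 CpGs had a peak in every library and 76.7% had none in any, against 67.2% and 12.2% of the 11252 with 21 or more. The promoter windows were searched on both strands for TTNNGCAA, a C/EBP-type motif present in 8.69% of promoters, and none of the members' windows held it. GAGGAA, a PU.1-type core present in 27.9%, occurred at CEBPE and CEBPZ. CCAAT, present in 34.6%, occurred at both CEBPB starts and at 1 of the CEBPG starts. TATAAA, present in 9.46%, occurred at CEBPA and at 1 of the CEBPB starts. These matches describe letters in the windows and not bound sites.

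**Figure D1:**
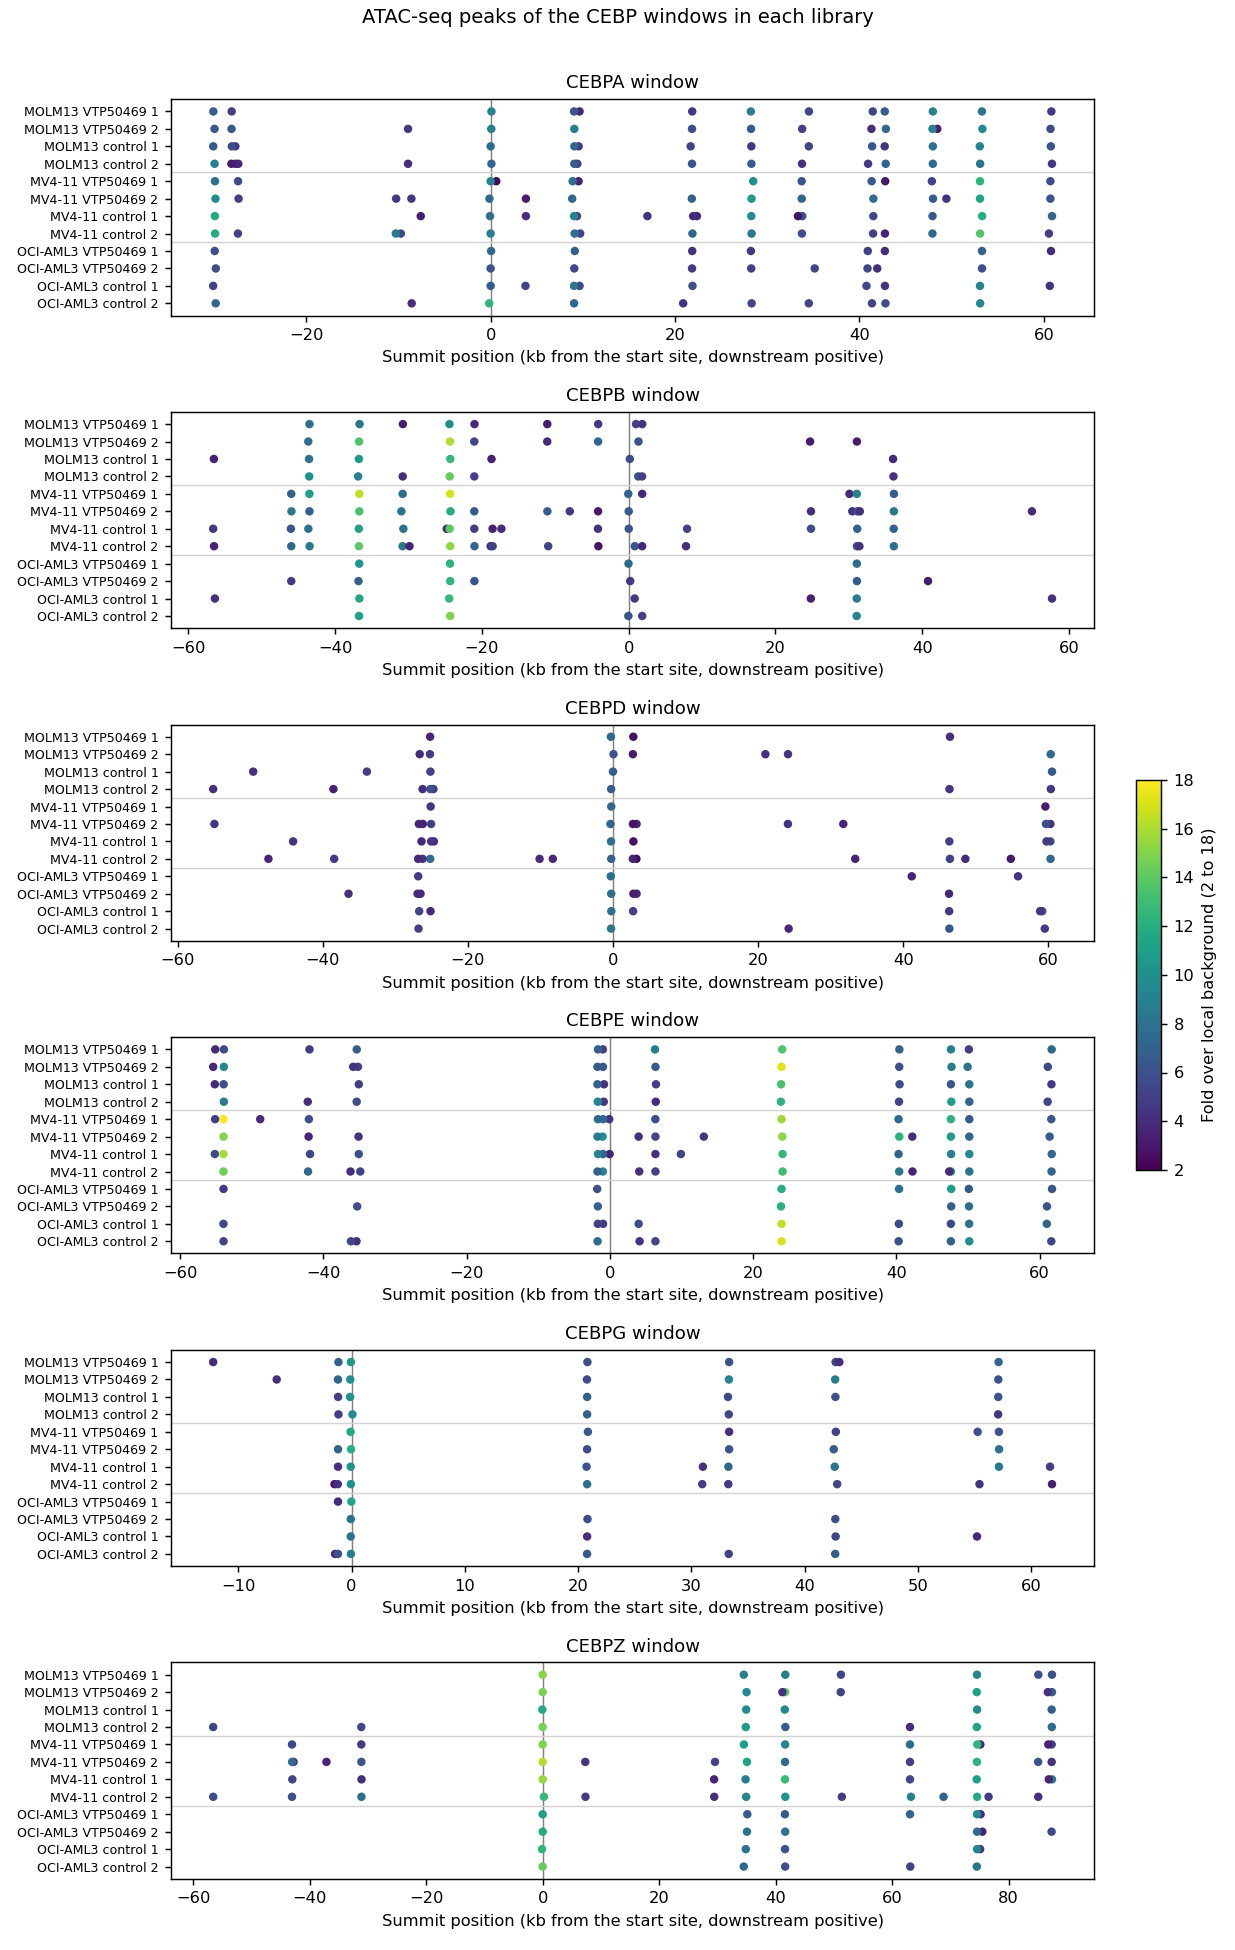
Summits of all called peaks in the 6 windows (x axis, kb from the member's start site, downstream positive), 1 row a library, coloured by fold over local background. Regions in the overlap of the CEBPA and CEBPG windows are drawn with the nearer gene. CEBPE has a peak at its start site in 2 MV4-11 libraries only, and the regions 43.6 kb upstream of CEBPB and 47.9 kb downstream of CEBPA have none in OCI-AML3.

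Between VTP50469 and control, no member's promoter passed the test of strength in any line, where 0% of all regions passed. With none passing anywhere, the test cannot tell an unchanged promoter from a changed one. The CEBPE promoter region was called in 1 OCI-AML3 library and was not tested in that line. Peak strength was the fold of the summit over its local background as deposited, at the strongest peak of each region. It was ranked within each library among the regions called in every library fitted, and turned into normal scores. A shift of 1 is thus 1 standard deviation of those regions. Each shift is VTP50469 minus control, tested with limma over all regions called in every library of the line. At the CEBPA promoter (chr19:33302146-33303260), shared with the divergent transcript CEBPA-DT, the fold was 9.29 and 8.88 in VTP50469-treated MOLM13 cells, against 7.60 and 7.09 in control MOLM13 cells. In MV4-11 it was 9.29 and 7.57 with VTP50469, against 7.96 and 8.73 in control. In OCI-AML3 it was 7.38 and 6.0 with VTP50469, against 6.71 and 12.5 in control. The groups did not overlap in MOLM13 and overlapped in MV4-11 and OCI-AML3. MOLM13 had a shift of 0.33 (SE 0.45, adjusted p = 0.978), MV4-11 one of 0.07 (SE 0.40, adjusted p = 0.99) and OCI-AML3 one of -0.63 (SE 0.53, adjusted p = 0.912).

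The CEBPB promoter region (chr20:50190358-50192123), which also holds the start of CEBPB-AS1, had the lowest fold of the promoters called in every library (4.56 to 7.52), except in OCI-AML3 VTP50469 replicate 1, where CEBPA was lower. It had a fold of 5.11 and 6.0 with VTP50469, against 5.62 and 6.14 in control, in MOLM13. Merged within MOLM13 this was 2 regions. The one 0.2 kb downstream had 4.13 and 3.42 with VTP50469, against 5.62 and 4.04 in control (limma shift -0.92, SE 0.56, adjusted p = 0.918). The one 1.1 kb downstream had a shift of -0.19 (SE 0.44, adjusted p = 0.990). In MV4-11 the fold was 7.06 and 6.598 with VTP50469, against 6.27 and 6.08 in control. In OCI-AML3 it was 7.52 and 4.74 with VTP50469, against 4.56 and 6.09 in control. Only in MV4-11 were both treated libraries above both controls, by a shift of 0.30 (SE 0.39, adjusted p = 0.924), and over the 3 lines the shift was 0.15 (SE 0.26, adjusted p = 0.949). The CEBPD promoter region (chr8:47737217-47739103) had the most summit reads of the 6 promoters in all 12 libraries, between 39 and 97. Its fold was 7.40 and 6.23 with VTP50469, against 6.73 and 6.53 in control, in MOLM13. It was 7.27 and 7.06 with VTP50469, against 7.75 and 6.93 in control, in MV4-11, and 8.03 and 7.72 with VTP50469, against 8.06 and 8.19 in control, in OCI-AML3. In OCI-AML3 both treated folds were below both controls. The limma shift there, which ranks each region among those called in every library of the line, was 0.10 (SE 0.46, adjusted p = 0.993). Over the 3 lines the shift was -0.01 (SE 0.23, adjusted p = 0.997).

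At CEBPE, the region nearest the start site that was open beyond 2 libraries lay 0.8 kb upstream (chr14:23119772-23120364). It was called in all MOLM13 and MV4-11 libraries and in OCI-AML3 control replicate 1 alone of the OCI-AML3 libraries, with a fold of 4.63. In MOLM13 its fold was 4.97 and 6.13 with VTP50469, against 4.29 and 4.60 in control (shift 0.55, SE 0.43, adjusted p = 0.945). In MV4-11 it was 7.66 and 9.99 with VTP50469, against 6.88 and 9.30 in control (shift 0.26, SE 0.42, adjusted p = 0.947). A second region 1.6 kb upstream was called in all 12 libraries, with folds between 5.003 and 9.41. The CEBPG promoter (chr19:33373079-33374305) had a fold of 10.4 and 9.90 with VTP50469, against 10.1 and 9.64 in control, in MOLM13. In MV4-11 the fold was 11.6 and 11.9 with VTP50469, against 10.3 and 10.2 in control, and in OCI-AML3 11.4 and 8.14 with VTP50469, against 8.08 and 8.59 in control. MV4-11 was the line with no overlap, with a shift of 0.34 (SE 0.39, adjusted p = 0.913). The CEBPZ promoter (chr2:37231084-37232081), whose start is shared head to head with NDUFAF7 on the other strand, had the highest fold of the 6 in every library but OCI-AML3 VTP50469 replicate 1, where that of CEBPG was higher. Its fold was 15.1 and 14.9 with VTP50469, against 11.66 and 14.7 in control, in MOLM13. In MV4-11 it was 14.9 and 16.2 with VTP50469, against 15.5 and 12.7 in control, and in OCI-AML3 11.0 and 11.67 with VTP50469, against 12.5 and 14.3 in control. The treated values were above the controls in MOLM13 and below them in OCI-AML3, with shifts of 0.16 (SE 0.46, adjusted p = 0.992) and -0.30 (SE 0.45, adjusted p = 0.961).

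**Figure D2:**
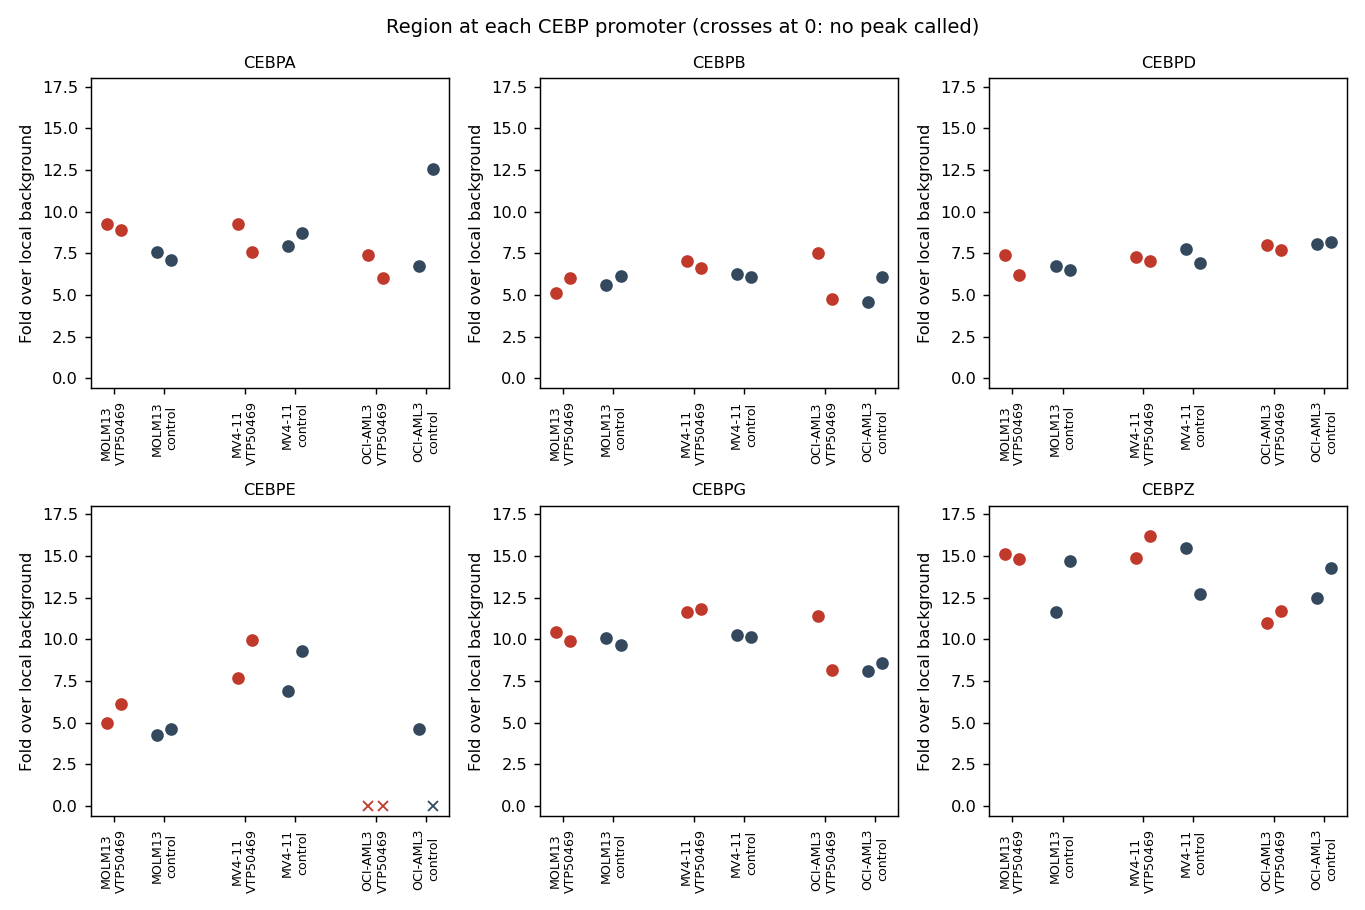
Fold over local background (y axis, linear) of the region at each member's promoter in the 12 libraries, by line and treatment, 1 point a library. A cross at 0 stands for a library with no called peak. CEBPZ has folds of 11.0 to 16.2, the highest but in OCI-AML3 VTP50469 replicate 1, and CEBPE, shown at the region 0.8 kb upstream, lacks a peak in 3 OCI-AML3 libraries.

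The CEBPA enhancer near 42 kb was covered by peaks in all 12 libraries. The main region (chr19:33260716-33262151, centred 41.1 kb downstream, outside any annotated gene) had a fold of 5.29 and 4.10 with VTP50469, against 6.28 and 4.80 in control, in MOLM13. In MV4-11 the fold was 6.50 and 7.67 with VTP50469, against 5.40 and 5.12 in control. In OCI-AML3 it was 5.06 and 5.44 with VTP50469, against 5.43 and 5.22 in control. Merged within OCI-AML3 this was 2 regions, 41.4 kb and 40.8 kb downstream. The value of control replicate 2 came from the one at 41.4 kb, and the others from the one at 40.8 kb. Their limma shifts had opposite signs, at -0.25 (SE 0.498, adjusted p = 0.976) for 41.4 kb and 0.41 (SE 0.498, adjusted p = 0.95) for 40.8 kb. Both treated MV4-11 libraries were above both controls, with 23 and 31 reads at the summit, against 16 and 22, whereas the groups overlapped in the other lines. The MV4-11 shift of 0.83 (SE 0.40) had an unadjusted p of 0.0641 and an adjusted p of 0.760 over 70124 regions, the MOLM13 shift was -0.64 (SE 0.54, adjusted p = 0.951), and the mean shift over the 3 lines was 0.09 (SE 0.26, adjusted p = 0.974). In the fit of all 12 libraries, the shift in MOLM13 minus that in MV4-11 was -1.47 (SE 0.64, unadjusted p = 0.0365, adjusted p = 0.999). A second region 42.8 kb downstream (chr19:33259510-33259940) was stronger in MOLM13, at 6.76 and 7.34 with VTP50469, against 4.50 and 7.11 in control. In MV4-11 it was called in 1 library of each group, at 3.14 with VTP50469, against 3.68 in control. In OCI-AML3 it was called in 1 treated library at 3.95 and in both controls at 4.35 and 5.80. The region nearest to 42 kb, 41.9 kb downstream, was called in VTP50469-treated OCI-AML3 replicate 2 alone, with 9 reads. The sequence of the enhancer was not analysed here.

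Among window regions called in every library of a line, 0 passed the test of strength with VTP50469 by limma. In MOLM13, 0 of 39 window regions called in all 4 libraries passed the adjusted threshold of 0.05 (0% of 41518 regions overall), and 1 was higher and 1 lower at an unadjusted p under 0.05. In MV4-11, 0 of 41 passed (0% of 70124), and among OCI-AML3 libraries 0 of 22 passed (0% of 30982), in each with 0 at an unadjusted p under 0.05 in either direction. Over the 3 lines 0 of 19 regions called in all 12 libraries passed (0% of 23338), and 0 had an unadjusted p under 0.05. The higher region in MOLM13 lay 6.4 kb downstream of the CEBPE start site (chr14:23112732-23113025), beyond the end of the gene, at a fold of 8.80 and 6.59 with VTP50469, against 4.85 and 3.89 in control. Its shift was 1.51 (SE 0.53, unadjusted p = 0.0171, adjusted p = 0.878). In MV4-11 the same place had 5.84 and 5.31 with VTP50469, against 4.21 and 5.08 in control, and in OCI-AML3 it was called in control replicate 2 alone, at 5.27. The lower region in MOLM13 lay 25.2 kb upstream of CEBPD (chr8:47763043-47763685), at 3.67 and 4.80 with VTP50469, against 5.10 and 6.04 in control, with a shift of -1.09 (SE 0.47, unadjusted p = 0.0407, adjusted p = 0.878). Taking regions called in at least 2 of a line's 4 libraries, with a missing peak at the lowest score of its library, limma called 2 of 77 window regions in MV4-11 (2.6%, where 5.13% of 117695 regions passed), 0 of 56 in MOLM13 and 0 of 39 in OCI-AML3. Both were lower with VTP50469, which had no peak there, and lay 31.0 kb downstream of CEBPG and 46.5 kb downstream of CEBPD. They entered through their control peaks alone, and both treated libraries were filled at the lowest score. Direction and small spread follow from that fill, so these calls are no test of a treatment effect.

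Where the folds of both groups did not overlap, window regions were more often higher with VTP50469 in MOLM13 and more often lower in OCI-AML3, and so were regions over the genome. In MOLM13, both treated libraries exceeded both controls at 11 of 39 window regions (28.2%), where 24.6% of all regions did, and lay below them at 5 (12.8%), where 9.64% did. In MV4-11, 10 of 41 were higher (24.4%), where 16.8% of all regions were, and 6 were lower (14.6%), where 19.5% were. In OCI-AML3, 1 of 22 was higher (4.55%), where 10.3% were, and 9 were lower (40.9%), where 24.4% were. The fold was not scaled between libraries in these counts, and the split between higher and lower over all regions differed between lines.

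Peaks lost or gained outright were few. A region was counted as lost when it was called in both control libraries of a line and in neither VTP50469 library, and as gained in the reverse case. In MOLM13, 2 of 90 window regions were lost (2.22%, against 1.3% of 169555 regions) and 4 were gained (4.44%, against 3.22%). In MV4-11, 5 of 128 were lost (3.91%, against 2.75% of 207839) and 0 were gained (1.92% overall). In OCI-AML3, 0 of 82 were lost (2.57% of 158863 overall) and 0 were gained (1.32% overall). These counts have no test, and leaving out any library moved some of them in the windows and in the genome. Without control replicate 1 or 2, MOLM13 had 16 and 6 lost regions (18.6% and 7.89% of window regions, against 15.7% and 11.9% of all regions). MV4-11 then had 27 and 17 (23.3% and 16.0%, against 14.7% and 12.9%), and OCI-AML3 had 14 and 14 (20.6% each, against 29.4% and 19.0%). Without VTP50469 replicate 1 or 2, MOLM13 had 3 and 4 lost regions (3.45% and 5.19%, against 2.85% and 4.17%), MV4-11 had 7 and 13 (5.74% and 11.1%, against 5.01% and 8.11%), and OCI-AML3 had 4 and 3 (5.06% and 4.29%, against 6.03% and 4.94%). Of gained regions, MOLM13 had 17 and 7 without VTP50469 replicate 1 or 2 (19.5% and 9.09%, against 23.8% and 22.2%), MV4-11 had 11 and 6 (9.02% and 5.13%, against 20.1% and 11.0%), and OCI-AML3 had 12 and 3 (15.2% and 4.29%, against 15.2% and 18.8%). Without control replicate 1 or 2, MOLM13 had 5 and 5 gained regions (5.81% and 6.58%, against 5.71% and 8.18%), MV4-11 had 3 and 1 (2.59% and 0.943%, against 4.07% and 5.02%), and OCI-AML3 had 1 and 1 (1.47% each, against 2.51% and 4.64%). With 1 library left in a group, fewer libraries have to concur for a region to count.

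The gained MOLM13 regions were ordered by the lower −log10 q of their libraries. First, at 4.66, came a region in the CEBPD window 2.8 kb downstream of the start site inside SPIDR, with low folds of 2.65 and 3.30 but 35 and 42 reads. The next, at 4.59, lay 4.1 kb upstream of CEBPB within CEBPB-AS1 (chr20:50186370-50186499), at a fold of 4.63 and 7.08 (12 and 17 reads) in VTP50469 libraries and with no peak in controls. In MV4-11 the region holding it was called in 1 treated and both control libraries. The gained region in the CEBPZ window, at 4.37, lay 51.1 kb downstream in SULT6B1, with folds of 5.19 and 5.28 and 7 reads each. The last, at 1.42, lay 11.0 kb upstream of CEBPB and had 4 and 5 reads in VTP50469 libraries. Counting only peaks of −log10 q 5 or more, 3 of 49 window regions were gained (6.12%, against 4.55% of all regions). All of these lay in the CEBPE window, so none of the gained regions described above was among them. With all called peaks counted, 0 of 16 CEBPE window regions were gained in MOLM13. Each of the 3 thus lay in a region with a peak in at least 1 control library, and the stricter threshold made it count as gained. The lost MOLM13 regions were 27.7 kb upstream of CEBPA (4.60 and 3.66 in controls, 8 and 7 reads) and 36.1 kb downstream of CEBPB (3.92 and 4.32 in controls, 5 and 6 reads). At the CEBPB place all 4 MV4-11 libraries had a stronger peak, at 6.53 and 8.44 with VTP50469, against 7.05 and 8.04 in control. In MV4-11 the strongest lost region by its lower −log10 q lay 31.0 kb downstream of CEBPG in PEPD, at 4.31 and 4.87 in controls (16 and 17 reads), and the next lay 46.5 kb downstream of CEBPD in SPIDR, at 5.03 and 5.03 in controls (9 and 9 reads). The other 3, of 5 to 9 reads in controls, lay 61.8 kb downstream of CEBPG, and 56.6 kb and 18.5 kb upstream of CEBPB.

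Between the lines, the share of peaks in the windows of CEBPA and CEBPB passed the test. The share of a library's peaks that fell in a gene's window, in peaks per 10000 called, was compared with limma over 19074 genes, as a log2 difference with 0.5 peak added. The CEBPA window held 15 and 20 peaks in VTP50469 and 19 and 21 in control MOLM13 libraries, and 16 and 15 in VTP50469 and 20 and 19 in control MV4-11 libraries. As a share this was 2.05 ± 0.37 per 10000 in MOLM13 and 1.36 ± 0.24 in MV4-11 (SD, n = 4 each). The shares were 1.57 to 2.39 in MOLM13 and 1.03 to 1.59 in MV4-11, overlapping at 1 library, and the log2 difference of MOLM13 minus MV4-11 was 0.58 (SE 0.14, adjusted p = 0.0122). In this contrast 1 of 6 members passed, where 7.78% of genes did. The neighbouring CEBPG, whose window overlaps that of CEBPA, had a difference of 0.60 (SE 0.19, adjusted p = 0.0527). Its share was 1.09 ± 0.14 in MOLM13 and 0.72 ± 0.12 in MV4-11 (SD, n = 4 each). The CEBPA call was lost without MOLM13 VTP50469 replicate 2 (0.51, adjusted p = 0.0659), without MV4-11 control replicate 2 (0.55, adjusted p = 0.0721), without MV4-11 VTP50469 replicate 2 (0.48, adjusted p = 0.0858) and with 20 kb on each side (0.22, adjusted p = 0.600). It was also lost with peaks of −log10 q 5 or more (0.46, adjusted p = 0.0689) and with covered bases in place of peaks (0.24, adjusted p = 0.0679). With covered bases 2 members other than CEBPA passed in this contrast, and the share of all genes that did is not given here. The MV4-11 libraries had more peaks in all, so a like number of peaks in the window gave a smaller share, and the bases covered there averaged 5586 in MOLM13, against 7095 in MV4-11.

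The CEBPB share was highest in MV4-11 and lowest in OCI-AML3. It held 14 and 18 peaks in VTP50469 and 22 and 20 in control MV4-11 libraries, and 5 and 8 in VTP50469 and 9 and 5 in control OCI-AML3 libraries. The share was 1.43 ± 0.26 per 10000 in MV4-11 and 0.905 ± 0.37 in OCI-AML3 (SD, n = 4 each), and the log2 difference of MV4-11 minus OCI-AML3 was 0.67 (SE 0.21, adjusted p = 0.0241). In this contrast 1 of 6 members passed, where 24.7% of genes did, a share below the background. The OCI-AML3 shares were spread widely, at 0.65 and 1.17 with VTP50469 and 1.28 and 0.53 in control, and overlapped those of MV4-11. The call was lost without OCI-AML3 control replicate 2 (0.37, adjusted p = 0.160), without OCI-AML3 VTP50469 replicate 1 (0.47, adjusted p = 0.123), without MV4-11 control replicate 1 (0.62, adjusted p = 0.0914), without MV4-11 VTP50469 replicate 1 (0.68, adjusted p = 0.0613) and without MV4-11 VTP50469 replicate 2 (0.66, adjusted p = 0.0694). With 20 kb on each side it was 0.62 (adjusted p = 0.0769), and with peaks of −log10 q 5 or more 0.29 (adjusted p = 0.183). With 20 kb 1 member other than CEBPB passed in this contrast, and the share of all genes that did is not given here. Between MOLM13 and OCI-AML3, 0 of 6 members passed, where 17.9% of genes did, and CEBPA and CEBPG had unadjusted p-values of 0.0432 and 0.0396.

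Ordered by line, the CEBPA share was highest in MOLM13, then OCI-AML3 (1.63 ± 0.22) and MV4-11, and neither neighbouring pair in that order passed the test. For CEBPD, MOLM13 had a share of 0.68 ± 0.23, MV4-11 of 0.77 ± 0.39 and OCI-AML3 of 0.86 ± 0.26 (SD, n = 4 each), with no pair past the test. CEBPE ran from 1.25 ± 0.18 in OCI-AML3 to 1.46 ± 0.26 in MOLM13 and CEBPZ between 0.80 ± 0.15 in MOLM13 and 0.96 ± 0.075 in MV4-11, again with no pair past the test. With VTP50469, 0 of 6 members passed in any line or, by limma, over the 3 lines (0% of 19074 genes), and 2 had an unadjusted p under 0.05 over the 3 lines. Within lines, CEBPA in MOLM13 (-0.41, SE 0.20, unadjusted p = 0.0487, adjusted p = 0.700) and CEBPD in MV4-11 (-1.003, SE 0.40, unadjusted p = 0.0202, adjusted p = 0.998) had one. Those over the 3 lines were CEBPE and CEBPD, at log2 differences of -0.28 (SE 0.12, unadjusted p = 0.0320, adjusted p = 0.755) and -0.53 (SE 0.23, unadjusted p = 0.0333, adjusted p = 0.757). The CEBPE shares were 1.36 and 1.26 with VTP50469, against 1.39 and 1.84 in control, in MOLM13. They were 1.297 and 1.101 with VTP50469, against 1.44 and 1.36 in control, in MV4-11, and 1.04 and 1.17 with VTP50469, against 1.42 and 1.38 in control, in OCI-AML3. Both treated libraries were below both controls in share in each line, as at 0.692% of all genes (taken singly, MOLM13 had 24.3% of genes so, MV4-11 had 20.6% and OCI-AML3 had 13.6%). As counts, the MOLM13 groups overlapped, at 13 and 13 CEBPE window peaks with VTP50469, against 11 and 17 in control. In MOLM13 the separation thus rests on the libraries' peak totals. The counts did not overlap in MV4-11 (15 and 16, against 18 and 18) or OCI-AML3 (8 and 8, against 10 and 13). The CEBPD window held 3 and 12 peaks in VTP50469 and 10 and 16 in control MV4-11 libraries, groups that overlapped. With 20 kb on each side the CEBPD difference turned to 0.08 (adjusted p = 0.996), and with peaks of −log10 q 5 or more the CEBPE difference turned to 0.18 (adjusted p = 0.959). The CEBPA shares did not overlap between treatments in any line, as at 4.04% of all genes in either direction. They were 1.57 and 1.94 with VTP50469, against 2.39 and 2.28 in control, in MOLM13, and 1.38 and 1.03 with VTP50469, against 1.59 and 1.44 in control, in MV4-11. In OCI-AML3 they were 1.69 and 1.89 with VTP50469, against 1.56 and 1.38 in control. In OCI-AML3 both treated libraries were above both controls in share, as at 18.8% of all genes, and in the other lines below them. The log2 difference in MOLM13 (-0.41) minus that in OCI-AML3 (0.28) was -0.70 by limma (SE 0.28, unadjusted p = 0.0211, adjusted p = 0.556). As counts, the groups touched in OCI-AML3, at 13 and 13 peaks with VTP50469, against 11 and 13 in control. They overlapped in MOLM13 (15 and 20, against 19 and 21) and did not in MV4-11 (16 and 15, against 20 and 19).

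**Figure D3:**
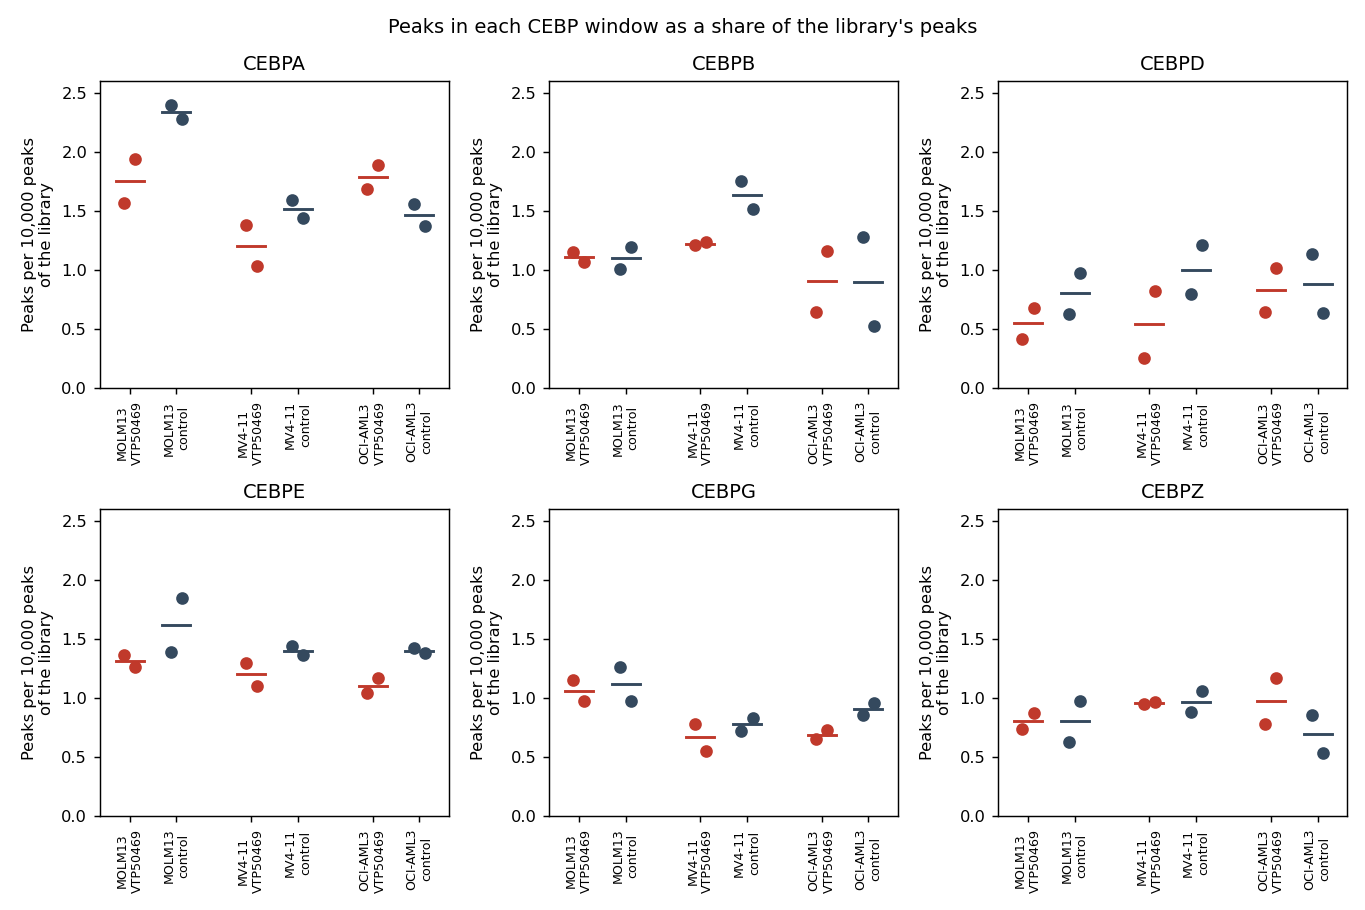
Peaks in each member's window per 10,000 called peaks of the library (y axis, from 0), by line and treatment. Points are libraries (red VTP50469, dark control) and short lines are the means of 2 libraries. CEBPA shares lie between 1.57 and 2.39 in MOLM13 and between 1.03 and 1.59 in MV4-11, and CEBPB shares are widely spread in OCI-AML3 (0.53 to 1.28).

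Some regions away from promoters were called in every library of 1 or 2 lines and in none of the rest. Of the 149 window regions, 19 (12.8%) were called in all 12 libraries, where 6.97% of all regions were, and 61 (40.9%) in 1 library, where 55.3% were. The 19 were 5 each in the CEBPA and CEBPE windows, 4 in that of CEBPZ, 3 in that of CEBPB and 1 each in those of CEBPD and CEBPG, and 126 of the 149 lay away from annotated promoters. Called in all 8 MOLM13 and MV4-11 libraries and in 0 of the 4 OCI-AML3 libraries were 2 window regions (0.969% of all regions had this pattern). They lay 47.9 kb downstream of CEBPA (chr19:33254391-33254847) and 43.6 kb upstream of CEBPB (chr20:50146655-50147289), inside PEDS1. The CEBPA region had a fold of 9.21 and 9.12 with VTP50469, against 8.06 and 7.53 in control, in MOLM13, and of 5.16 and 6.52 with VTP50469, against 6.63 and 7.35 in control, in MV4-11. It had 21 to 28 reads at the summit in MOLM13 and 12 to 24 in MV4-11. The CEBPB region, which had the highest −log10 q of its window away from promoters, had 7.75 and 7.65 with VTP50469, against 7.94 and 10.1 in control, in MOLM13, and 11.0 and 6.77 with VTP50469, against 8.10 and 8.55 in control, in MV4-11. OCI-AML3 is the only line here without an MLL fusion, so fusion status cannot be told apart from its other differences.

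Called in MOLM13 alone was 1 window region (0.124% of all regions), 28.2 kb upstream of CEBPA (chr19:33330569-33330799), at a fold of 5.0 and 6.36 with VTP50469, against 5.62 and 3.18 in control. Counting only peaks of −log10 q 5 or more, it no longer had this pattern. Called in MV4-11 alone was 1 (2.01% of all regions), 43.1 kb upstream of CEBPZ in PRKD3 (chr2:37274518-37274929), at 5.40 and 7.36 with VTP50469, against 5.41 and 5.95 in control. Called in OCI-AML3 alone were 0 (0.245% of all regions). The following regions came close to such a pattern and were picked out after their values were seen. In the CEBPB window, a region 31.1 kb downstream (chr20:50221482-50221901) was called in all MV4-11 and OCI-AML3 libraries and in 1 MOLM13 library, treated replicate 2, at 3.24. Its fold was 9.14 and 6.14 with VTP50469, against 6.93 and 5.75 in control, in MV4-11, and 7.45 and 6.58 with VTP50469, against 8.60 and 9.30 in control, in OCI-AML3. Regions 46 kb and 31.0 kb upstream of CEBPB were called in all MV4-11 libraries, at folds of 6.35 to 8.38 and 7.71 to 8.37, and elsewhere in 1 OCI-AML3 and 2 MOLM13 libraries at 4.79 or less. These CEBPB regions were picked for their pattern, and a place without a call may still be open, so a difference between lines was not tested there. In the CEBPE window, a region 54.0 kb upstream inside SLC7A8 (chr14:23173019-23173461) had a fold of 18.1 and 15.02 with VTP50469, against 15.8 and 14.4 in control, in MV4-11. In MOLM13 it was 5.65 and 9.38 with VTP50469, against 5.88 and 8.51 in control, and in OCI-AML3 4.71 in 1 treated library, against 5.51 and 5.28 in control. Every MV4-11 value was above every value of the other lines. The share of all regions with this pattern is not given here. Fold was not scaled between libraries, and the median fold of all peaks was highest in the MV4-11 libraries (5.49 to 6.01). Near CEBPG, the region away from a promoter with the highest −log10 q, though not the highest fold, lay 1.2 kb upstream of its start site (chr19:33372365-33372609). In MOLM13 its fold was 6.84 and 7.13 with VTP50469, against 5.09 and 4.87 in control, groups that did not overlap, with a shift of 0.76 (SE 0.44, adjusted p = 0.909). It was called in 3 MV4-11 libraries, at 7.04 in 1 treated library, against 4.05 and 4.37 in control, and in 2 OCI-AML3 libraries, at 3.89 in 1 treated library, against 6.03 in 1 control.

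**Figure D4:**
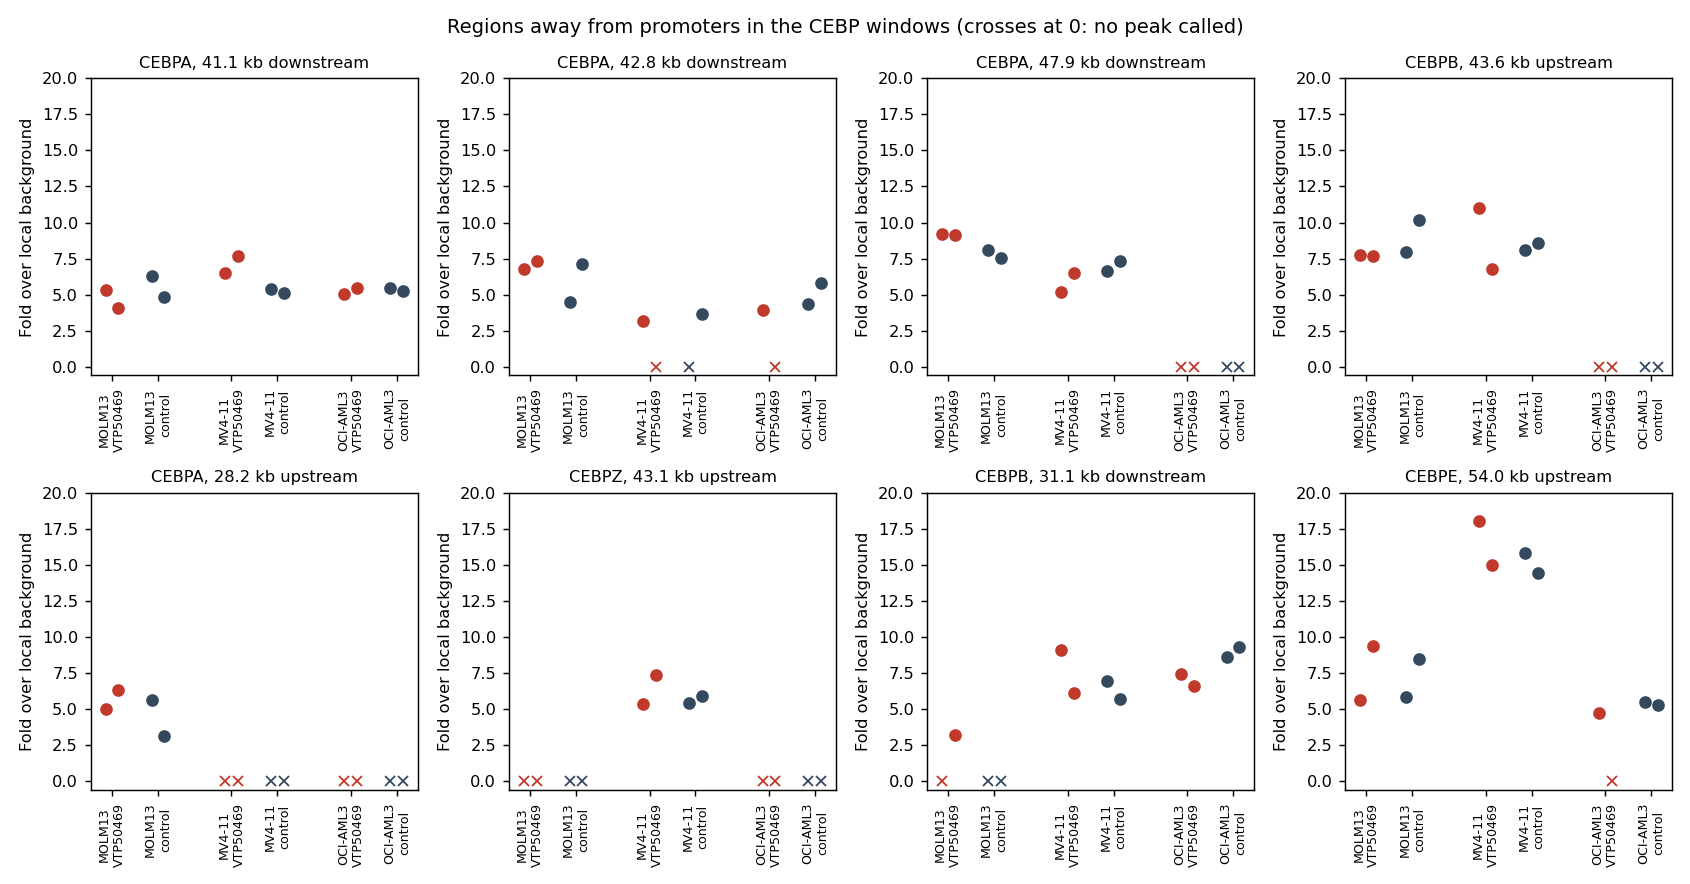
Fold over local background (y axis, linear) of 8 regions away from promoters in the CEBP windows, by line and treatment, 1 point a library, with a cross at 0 where no peak was called. The CEBPA region at 41.1 kb has a peak in all 12 libraries, those 47.9 kb downstream of CEBPA and 43.6 kb upstream of CEBPB have none in OCI-AML3, and the CEBPE region at 54.0 kb is strongest in MV4-11.

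Among the 19 regions called in all 12 libraries, the strength of 0 differed between MOLM13 and MV4-11 (4.42% of all regions did), 0 between MOLM13 and OCI-AML3 (8.79%) and 1 between MV4-11 and OCI-AML3 (13.6%). The called region was the CEBPD promoter, lower in MV4-11 (6.93 to 7.75) than in OCI-AML3 (7.72 to 8.19), with a shift of -0.92 (SE 0.28, adjusted p = 0.0402). The ranges touched at 1 library. Between MOLM13 and OCI-AML3 the shift there was -0.64 (SE 0.28, adjusted p = 0.167). The MV4-11 libraries had 84 to 91 reads at the summit over a local background of 9.97 to 12.3 reads, against 39 to 50 reads over 3.98 to 5.23 in OCI-AML3. Scored by summit reads in place of fold, the direction turned, to 0.42 (adjusted p = 0.155), and the call was lost when any of the 4 MV4-11 or 4 OCI-AML3 libraries was left out (adjusted p between 0.0544 and 0.134). It was lost as well with peaks of −log10 q 5 or more, where 0 of 14 window regions passed between MV4-11 and OCI-AML3 (smallest adjusted p = 0.0532). The smallest p-values of the other windows between lines were at the shared ACIN1 and C14orf119 promoter 24.1 kb downstream of CEBPE (MV4-11 minus OCI-AML3 -0.80, SE 0.27, adjusted p = 0.0615) and 29.9 kb upstream of CEBPA (MV4-11 minus OCI-AML3 0.74, SE 0.28, adjusted p = 0.0965). The CEBPA region away from promoters with the highest −log10 q, 53.2 kb downstream, had a limma shift of 0.64 (SE 0.27, adjusted p = 0.123) in that contrast. Its folds of 11.4 to 13.7 in MV4-11 and 5.82 to 9.32 in OCI-AML3 did not overlap. These folds were not scaled between libraries, and the share of all regions separated so is not given here. In the CEBPZ window the smallest p was at a region 41.8 kb downstream in SULT6B1 (MOLM13 minus OCI-AML3 0.69, SE 0.35, adjusted p = 0.243). It also had the highest −log10 q of that window away from promoters, at 8.58 and 13.98 with VTP50469, against 9.32 and 6.48 in control, in MOLM13, and at 6.73 and 7.96 with VTP50469, against 6.15 and 5.76 in control, in OCI-AML3.

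Genes around the family gave no treatment call. Of 8 genes that pair with or restrain C/EBPs, MOLM13 had 6, MV4-11 had 7 and OCI-AML3 had 6 with a promoter region called in all 4 libraries of the line, and 0 passed in any line or had an unadjusted p under 0.05. Their median shifts were 0.06, 0.22 and 0.11 in those lines, against 0.03, 0.26 and 0.10 for the family's own promoters and -0.01, 0.02 and 0.0013 for all regions. TRIB3, a pseudokinase of the Tribbles family, had the smallest p of them in each line, at a fold of 7.62 and 5.56 with VTP50469, against 5.15 and 4.87 in control, in MV4-11 (shift 0.76, SE 0.43, adjusted p = 0.795). Of 16 myeloid genes known to carry C/EBP sites, 7, 9 and 6 could be tested in the lines in that order, 0 passed, and the median shifts were 0.02, 0.24 and -0.36. CAMP, which encodes the antimicrobial cathelicidin of granulocyte granules, had the only unadjusted p under 0.05, in OCI-AML3. Its fold there was 10.0 and 9.73 with VTP50469, against 6.74 and 7.09 in control, and the groups did not overlap (shift 1.06, SE 0.45, unadjusted p = 0.0378, adjusted p = 0.858). Of the 16, 4 had a promoter region in every library of all 3 lines, 3 in MOLM13 and MV4-11 (MPO, PRTN3 and AZU1, of granule proteins), 1 in MV4-11 and OCI-AML3 (CD14), 1 in MV4-11 (CSF3R), 1 in OCI-AML3 (S100A8) and 6 in no line throughout. S100A8, a calcium-binding protein of neutrophils and monocytes, had folds of 5.95 and 5.51 with VTP50469, against 9.18 and 7.92 in control, in OCI-AML3 (shift -0.86, SE 0.48, adjusted p = 0.872). TRIB3 and S100A8 were picked for their values after these were seen. MPO, PRTN3, AZU1, CD14 and CSF3R were named for the lines that called them, also after these were seen.

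The genes whose window peak share ran most like that of a member over the 12 libraries were SF3B5, ANKHD1 and DUSP18 for CEBPA (Pearson r 0.963 to 0.914), UBL7, GIGYF2 and TPX2 for CEBPB (0.922 to 0.903), and CEP76 and KLHL8 for CEBPD (0.896 and 0.869). They were CSNK1A1, THOC5 and LRRC19 for CEBPE (0.867 to 0.852), B3GAT2, DNAJC3 and MEF2C for CEBPG (0.918 to 0.904) and RNASE9, SUN3 and PARD6G for CEBPZ (0.922 to 0.903). Each correlation is among the highest of some 19074 over 12 points that share their libraries' peak totals, and it is a description only.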

How the data were processed

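Bulk ATAC-seq was analysed in 12 libraries, 2 for each of 3 AML lines with VTP50469 or as control, grouped by the labels. Per the labels, the authors used MACS2 2.1.0, deepTools, Trimmomatic 0.33, bcl2fastq 2.17 and Bowtie 1.1.2, with hg38 as the build; the study's methods name another aligner, and whether read ends were shifted for Tn5 is not given in the sources used here. The authors called peaks in each library alone and deposited for each peak a score, a fold over local background (ratio), a −log10 p-value and a −log10 q-value, and a summit offset. Nothing was scaled between libraries, so the fold depends on depth and on the local background.

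Peaks on chromosomes 1 to 22 and X (1199477 of 1200433) were merged where they overlapped by 1 bp. Windows were gene bodies (RefSeq, GRCh38) with 60 kb on each side, and regions in 2 windows went to the nearer gene. Summit and background reads were solved from the fold and the p-value, with whole reads within 0.001 in at least 99.98% of each library's peaks. Strength was tested on normal scores of the fold with limma 3.58.1 (R 4.3.3) over regions called in every library fitted, and window peak shares over genes with a peak in 6 or more libraries, both two-sided with Benjamini-Hochberg adjustment, and both were tested on simulated data. A promoter was the 1 kb on each side of a start site. The 956 peaks on other sequences were left out.

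The text names all 6 members, their promoter regions, the region with the highest −log10 q away from promoters, lost and gained regions, up to 3 regions a window with the smallest p between lines, the region nearest 42 kb from CEBPA, listed genes at an unadjusted p under 0.05 and the 3 genes most like each member, and says where others were picked after their values were seen. A few marker genes and like genes are not reported here. The members and lists were chosen with earlier results of these data known. Alternatives covered the peak threshold, the overlap, the window, the scale, filters, a replicate block and each library left out.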

Additional observations from a re-analysis of the deposited data

How the results depend on the processing

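The sequencing depth of the libraries is unknown, a region without a call may still be open, and calls at 2 libraries a group rest on few values. Each of the 3 calls among the family was lost in some alternatives, as given with it. An alternative chosen after seeing the data took regions called in at least 4 of 12 libraries, with missing peaks at the lowest score. Of 61 window regions it called 8 between MOLM13 and MV4-11 (13.1%, where 22.1% of 97139 regions passed) and 11 between MOLM13 and OCI-AML3 (18%, where 19.7% did). Between MV4-11 and OCI-AML3 it called 18 (29.5%, where 40.2% did), all higher in MV4-11. The main counts were 0, 0 and 1, and the CEBPD promoter was not among these calls (-0.49, limma adjusted p = 0.138). A region could enter through the peaks of 1 line, and each library without a peak was filled at the lowest score. That fill can set direction and spread, so no difference between lines is read from these calls. With VTP50469 this alternative called 2 regions in MOLM13 (3.28%, where 1.93% passed), higher 4.2 kb upstream and lower 36.2 kb downstream of CEBPB. In MOLM13 each had peaks in a single treatment group, so the fill at the lowest score set the direction, and no treatment effect is read from them.

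The replicate numbers did not pair the libraries (correlations of same-numbered deviations of 0.036, 0.020 and 0.0079 in peak strength for MOLM13, MV4-11 and OCI-AML3). With a replicate block, window share calls stayed at 1, 0 and 1 for MOLM13 minus MV4-11, MOLM13 minus OCI-AML3 and MV4-11 minus OCI-AML3, and adjusted p-values were 0.020 and 0.0431 for the CEBPA and CEBPB share calls and 0.0486 for the CEBPD promoter strength.

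With 20 kb on each side, lost regions numbered 0 in MOLM13 (1.3% of all regions) and 1 in MV4-11 (2.22%, against 2.75% of all regions). The share calls of MOLM13 minus MV4-11 numbered 0, and the CEBPD treatment difference turned to 0.075. With at least 0.5 of the shorter peak shared, lost regions numbered 1 in MOLM13 (1.01%, against 1.21%) and 3 in MV4-11 (2.21%, against 2.52%). With −log10 q of 5 or more they numbered 1 and 2 (2.04% and 2.78%, against 1.34% and 4.22%). Regions of 1 line alone numbered 0 of 75 in MOLM13 (230 of 132497 in the genome) and 3 of 75 in MV4-11 (6636 of 132497). MV4-11 minus OCI-AML3 gave 0 strength calls, and share calls were 0, 1 and 0 in the 3 line contrasts. The treatment differences in share then turned to 0.18 for CEBPE, 0.051 for CEBPG and -0.042 for CEBPZ. Recovered summit reads gave 7 strength calls for MOLM13 minus OCI-AML3 and 3 for MV4-11 minus OCI-AML3, and turned the CEBPD promoter shift to 0.42. Regions called in at least 2 of 4 libraries gave 2 treatment strength calls in MV4-11 (2.6%, where 5.13% passed). Adding 1 peak gave 2 share calls for MOLM13 minus MV4-11, and covered bases gave 2 there and 3 for MOLM13 minus OCI-AML3. Counts of strength or share calls without a share of all regions or genes beside them show only that the calls moved.

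With each library left out in turn, lost regions ranged over 3 to 16 in MOLM13, 7 to 27 in MV4-11 and 3 to 14 in OCI-AML3, and gained regions over 5 to 17, 1 to 11 and 1 to 12. Regions of MV4-11 alone ranged over 1 to 2, strength calls of MV4-11 minus OCI-AML3 over 0 to 1, and share calls over 0 to 2, 0 to 1 and 0 to 1 in the 3 line contrasts. The CEBPB treatment difference in share ranged over -0.31 to 0.10, turning positive without OCI-AML3 control replicate 1 (0.10) or VTP50469 replicate 1 (0.03). Of the counts recomputed, 238 stayed within 1.5 times and 66 did not. Of the single values, 131 kept direction and call, 22 lost the call and 7 turned.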
